A study of Mus musculus with 24 samples.

Results

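The B cells of Panc02 tumors, a subcutaneous model made with a mouse pancreatic cancer line, were described across 8 combinations of vaccine and checkpoint antibodies. A barcode, which stands for the content of 1 droplet, was chosen by its counts of unique molecular identifiers (UMIs, 1 per captured RNA molecule). It had to hold at least 1000 UMIs with under 10% of them mitochondrial, and at least 3 UMIs summed over *Cd79a*, *Cd79b* and *Ms4a1* with at least 1 of *Cd79a*. It could hold no *Cd3d*, *Cd3e* or *Cd3g*, fewer than 10 C1q UMIs per 10000 and no *Siglech*, which mark T cells, macrophages and plasmacytoid dendritic cells. Of 144994 deposited barcodes, 120912 passed the depth and mitochondrial limits, and 2889 of these met the rule. B cells carry an antigen receptor made of membrane immunoglobulin and the signaling pair encoded by *Cd79a* and *Cd79b*, take up antigen and present it on MHC class II, and on activation can turn into antibody-secreting plasma cells. In tumors they are found as scattered cells or in follicle-like aggregates beside T cells.

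The mice were WT male C57BL/6 animals of 6 to 7 weeks at implantation, and all carried Panc02 tumors, so no tumor-free or B cell–deficient tissue entered the comparisons. PancVAX is a pool of neoantigen peptides, given on days 12 and 19 at 50 ug of each peptide with adjuvants, and mice without it received PBS. Anti–PD-1 was given at 100 ug repeatedly from day 12 and anti–CTLA-4 at 100 ug on days 15 and 22, and mice without an antibody received isotype antibody. The 8 treatments were the isotype control, anti–PD-1, anti–CTLA-4, both antibodies, PancVAX, PancVAX with anti–PD-1, PancVAX with anti–CTLA-4, and PancVAX with both antibodies. Tumors were harvested on day 38 and pooled by treatment, and each treatment had 1 library of dissociated whole tumor and 1 of immune cells enriched over Percoll, a density medium. The labels do not tell if the 2 were drawn from the same animals, so the libraries of a treatment were treated as 1 pool, and 4 pools with an agent were set against 4 without it. For the agents, the spread between pools is the only error available, since mice were not kept apart. No treatment had a replicate pool, so in the tests of shares that spread also includes, for each agent, effects of the other 2. The gene tests had the other 2 agents as terms, but not their joint effects.

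The label was checked against genes that the rule did not use. Of the 2889 members, 2498 held at most 10000 UMIs, with a median of 2053 UMIs and 867 genes, and 2438 of these, or 97.6%, had a UMI of *Ighd*, *Ighm* or *Fcmr*, which encode the heavy chains of naive B cells and the receptor for IgM. *Ebf1*, the transcription factor that sets up the B lineage, was found in 89.5% of them, *Fcmr* in 73.4%, *Ighd* in 63.1% and *Pax5* in 36.5%. After each cell was thinned to 1000 UMIs, *Ebf1* was found in 70.8% of these B cells and 0.13% of 4000 T cells, *Fcmr* in 51.8% and 0.075%, and *Ighd* in 40.0% and 0.15%. Before thinning, the T cells, with a median of 3687 UMIs, had *Ebf1* in 0.67%, *Fcmr* in 0.27% and *Ighd* in 0.58% of cells, which gives the background of these genes in cells that should lack them. *Ighm* had a higher background, found in 86.4% of these B cells and 15.9% of T cells, or 65.8% and 5.48% after thinning. The label thus held for these 2498 barcodes as a group by each of these genes, though 60 of them had no UMI of *Ighd*, *Ighm* or *Fcmr*.

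The 391 members over 10000 UMIs went against the label in part. Their median was 26467 UMIs and 4866 genes, they held 68.7% of all member UMIs, and 176 of them had no UMI of *Ighd*, *Ighm* or *Fcmr*. The 5 tumor epithelial genes (*Krt8*, *Krt18*, *Krt7*, *Krt19* and *Epcam*) summed to 20.6 UMIs per 10000 in these barcodes and to 0.88 in the B cells of at most 10000 UMIs, and 90.0% against 0.36% of barcodes had 5 or more such UMIs. *Cd79a*, which the rule used, is given only as a description, at 1.96 per 10000 in the deep barcodes and 38.6 in the others, since a deep barcode passes the rule at a lower level. B cell and tumor RNA thus stand side by side in sums over all members, and gene results are given both for all members and for the 2481 within the limits of the study, which kept barcodes of 200 to 3000 genes and 1000 to 10000 UMIs without hemoglobin RNA. The rule's edge fell in the same place: of the 173 members with a sum of exactly 3 UMIs, 73.4% were over 10000 UMIs and 32.9% had *Ighd*, *Ighm* or *Fcmr*, against 9.72% and 95.6% of the 2716 members with 4 or more. Just outside, 556 barcodes had a sum of 2, of which 8.09% had one of these genes.

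**Figure D1:**
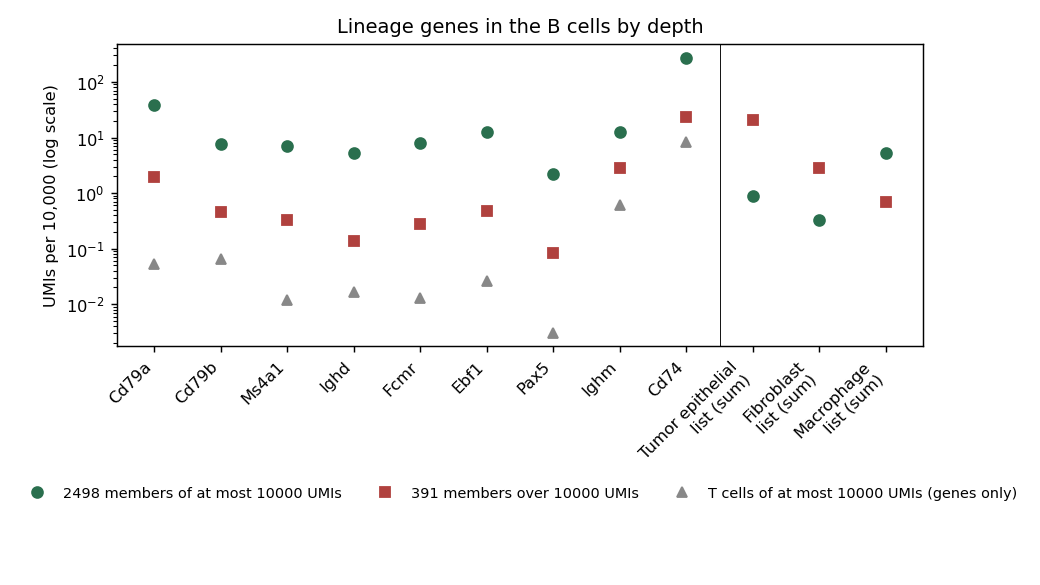
UMIs per 10000 (log axis) of 9 B cell genes and of 3 marker lists in the 2498 members of at most 10000 UMIs (circles), the 391 deeper members (squares) and, for the genes, T cells (triangles). The tumor epithelial list reaches 20.6 per 10000 in the deeper members, where *Ighd* falls to 0.14.

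Markers of other cell types were counted in the B cells of at most 10000 UMIs. The T cell list summed to 0.11 UMIs per 10000, with 3 of its 9 genes (*Cd3d*, *Cd3e* and *Cd3g*) at 0 by the rule, and ranged from 0 to 0.30 over the 16 libraries. The macrophage list of 8 genes, all detected, summed to 5.27 per 10000 with a range of 3.05 to 14.4. Its *C1qa*, *C1qb* and *C1qc* were together held under 10 per 10000 in each barcode by the rule, so this sum is limited by the rule. The neutrophil list of 5 genes summed to 5.76 with a range of 0 to 50.1. Neutrophil RNA sat in few barcodes, since 4.04% of these B cells had any and 1.24% had 5 UMIs or more. T cell receptor contigs, sequenced separately in the 8 Percoll libraries, were attached to 0 of 1398 B cells of at most 10000 UMIs, which allows a share of up to 0.26% by the exact 95% interval. They were attached to 0 of 220 deeper members, 81.6% of 9653 T cells and 130 of 50843 other barcodes, or 0.26%. Members could hold no *Cd3* UMI and the T cells had at least 2, so the rule removed barcodes of B and T cells together beforehand. The contrast with T cells is therefore no separate check on such barcodes. No doublet caller was run, and 10 members shared a barcode sequence with a member of another library.

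B cells took very unequal shares of the pools, and both libraries of a pool gave similar values. The share of barcodes past both limits was 6.36% in whole tumor and 8.30% in Percoll with anti–PD-1, the highest values, and 0.28% and 0.26% with PancVAX and anti–PD-1, the lowest. With both antibodies the shares were 0.61% and 0.67%, and with PancVAX and both antibodies 1.45% and 1.63%. The 4 pools with anti–PD-1 thus held both ends of the range. Without the members over 10000 UMIs, over the same barcodes, these 4 pools gave 5.86% and 7.61%, 0.23% and 0.20%, 0.40% and 0.49%, and 1.10% and 1.33%. Within the limits of the study, where fewer barcodes form the denominator, anti–PD-1 gave 10.9% and 16.6% and PancVAX with anti–PD-1 0.40% and 0.28%.

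The 4 pools without anti–PD-1 lay close together. The isotype control held 2.63% in whole tumor and 3.71% in Percoll, anti–CTLA-4 held 2.11% and 3.14%, PancVAX held 2.88% and 3.12%, and PancVAX with anti–CTLA-4 held 1.89% and 2.84%. Averaged over both libraries, pools with anti–PD-1 had 2.44% ± 3.30 (SD, n = 4) and pools without it 2.79% ± 0.36, a difference of −0.35 percentage points (exact permutation test, two-sided, *P* = 0.94, adjusted *P* = 0.94 over 3 agents). Leaving out the anti–PD-1 pool took that difference to −1.98, with the other 3 pools given the antibody (0.27% to 1.54%) all below the 4 without it (2.36% to 3.17%). The exact permutation test then gave *P* = 0.086 adjusted over 3 agents, the smallest value it can give for 1 agent alone. Leaving out the pool with PancVAX and anti–PD-1 or the pool with both antibodies turned the difference to 0.38 or 0.26. Counts behind a share ran from 19 to 550 B cells, and each library's exact 95% interval, which covers counting error only, ran from 7.65% to 8.99% for the largest share and from 0.17% to 0.43% for the smallest whole-tumor share.

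**Figure D2:**
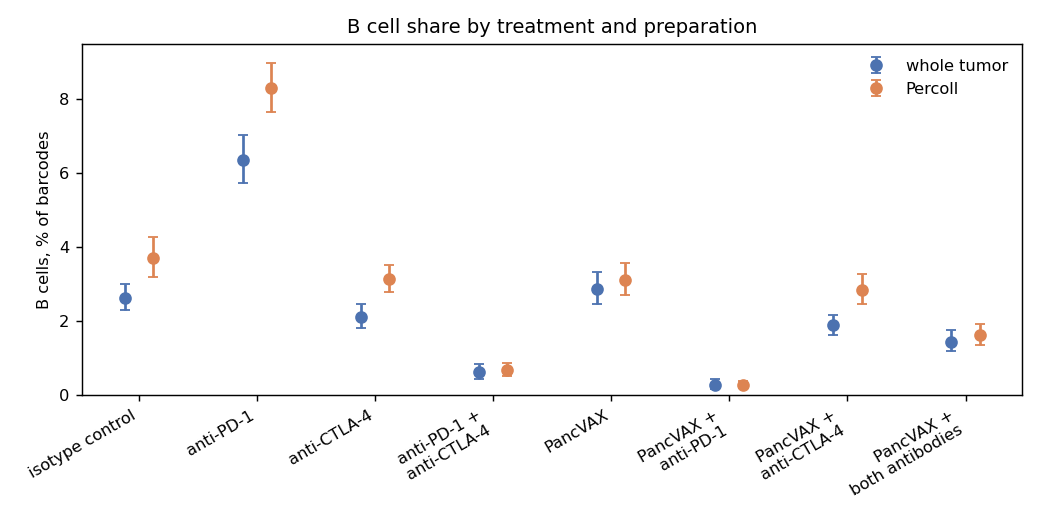
B cells as a percent of barcodes past both limits (y axis) in the whole-tumor and Percoll library of each of 8 treatments, with exact 95% binomial intervals as bars. Anti–PD-1 stands highest at 6.36% and 8.30%, and PancVAX with anti–PD-1 lowest at 0.28% and 0.26%.

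Neither of the other agents separated the full set of pools. Pools with PancVAX held 1.79% ± 1.18 B cells and pools without it 3.44% ± 2.81 (n = 4 each, exact permutation test, *P* = 0.37, adjusted *P* = 0.56), and pools with anti–CTLA-4 held 1.79% ± 0.90 against 3.44% ± 2.91 (exact permutation test, *P* = 0.34, adjusted *P* = 0.56). Without the pool with PancVAX and anti–PD-1, the 4 pools with anti–CTLA-4 (0.64% to 2.63%) all lay below the others (3.00% to 7.33%), a difference of −2.71. With 70 splits of 4 against 4 the smallest possible *P* of the exact permutation test was 0.029 before adjustment. Adjustment over the 3 agents takes that value to 0.086 where only 1 agent reaches it. The test could therefore not bring 1 agent alone under 0.05. As a share of lymphocytes, meaning B cells plus barcodes with at least 2 *Cd3* UMIs, B cells ranged from 1.09% in whole tumor with PancVAX and anti–PD-1 to 37.3% in Percoll with anti–PD-1. The pool with the fewest B cells had the largest T cell share, 25.0% of whole-tumor and 21.4% of Percoll barcodes, against 11.8% and 14.0% with anti–PD-1 and 9.52% and 9.96% in the isotype control.

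Percoll libraries held more B cells than whole-tumor libraries of the same treatment. The share was higher in 7 of 8 pools, by 0.68 percentage points on average (exact permutation test of the signs, two-sided, *P* = 0.016), and the exception was PancVAX with anti–PD-1. Preparation and sequencing batch were the same split and cannot be told apart.

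The repertoire of the B cells was broad and mostly unswitched. Leaving aside the plasma-type barcodes described below, 93.3% of 2495 B cells of at most 10000 UMIs had *Ighm* or *Ighd*, the genes of the IgM and IgD heavy chains, of which *Ighm* alone was found in 15.9% of T cells. UMIs of a switched heavy chain (*Ighg1*, *Ighg2b*, *Ighg2c*, *Ighg3*, *Igha* or *Ighe*) were found in 52 of them, or 2.08%, against 0.77% of T cells. In 11 cells there were at least 3 switched UMIs and they outnumbered *Ighm* and *Ighd* together. Cells with fewer switched UMIs were left out of that count. *Mki67*, a gene of dividing cells, was found in 1.92%.

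Variable segments were assigned where 1 segment had at least 2 UMIs and 80% of the variable UMIs of its chain. Of 2410 cells with at least 2 light chain variable UMIs, 1982 had a light chain assigned, and the rest were left out. Of 1982 cells with a light chain assigned, 1887 used 1 of the kappa segments and 95, or 4.79%, a lambda segment (exact 95% interval 3.89% to 5.83%). The lambda share was 6.26% with anti–PD-1, 3.74% in the isotype control, 4.40% with anti–CTLA-4, 6.67% with both antibodies, 3.37% with PancVAX, 4.00% with PancVAX and anti–CTLA-4, 4.90% with PancVAX and both antibodies, and 0 of 24 cells with PancVAX and anti–PD-1, which allows up to 14.2%. These intervals overlapped in all 8 pools. The cells spread over 86 light and 91 heavy segments, led by *Igkv10-96* with 119 cells in 7 pools, *Igkv1-117* with 93 cells in 8 pools and *Ighv1-26* with 59 cells in 8 pools. Of 1057 cells with both chains assigned, 708 were the only cell with their pair of segments, and the most frequent pairs, *Ighv1-64* with *Igkv17-121* and *Ighv9-3* with *Igkv1-135*, had 5 cells each in 4 pools.

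Of the lambda constant genes, *Iglc1* was found more often in cells with a lambda segment, and *Iglc2* and *Iglc3* were not. *Iglc2* was found in 73.0% of cells with a kappa segment and 71.6% of cells with a lambda segment, and *Iglc3* in 66.2% and 44.2%, whereas *Igkc* was found in 87.3% and 21.1% and *Iglc1* in 15.7% and 37.9%. In T cells *Iglc2* was found in 0.22%. With variable and constant genes counted together, 1684 of 2474 typed B cells of at most 10000 UMIs held both kappa and lambda. Of the rest, 12.2% were typed lambda. *Iglc2* ranged between pools from 5.43 UMIs per 10000 with PancVAX and both antibodies to 14.7 with PancVAX. *Iglc2* and *Iglc3* are near-identical copies, so the split of reads between them is uncertain.

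Plasma-type barcodes, chosen by *Jchain*, were few among the members and carried nearly all *Igha*, *Ighg2b* and *Ighg2c* RNA of the members. *Jchain*, which joins the chains of IgM and IgA, had at least 10 UMIs in 19 members, 16 of them over 10000 UMIs, 1 to 9 UMIs in 19 more and none in 2851. Those 19 barcodes held 98.3% of all *Igha* UMIs of the members, 98.6% of *Ighg2b*, 98.5% of *Ighg2c*, 49.0% of *Igkc* and 31.8% of *Ighm*. Their 99.3% of *Jchain* UMIs is given only as a description, since *Jchain* chose them. They were 13 Percoll and 6 whole-tumor barcodes, and there were 0 among 412 members of the isotype control, 3 of 904 with anti–PD-1, 2 of 446 with anti–CTLA-4, 5 of 110 with both antibodies, 1 of 365 with PancVAX, 1 of 47 with PancVAX and anti–PD-1, 2 of 368 with PancVAX and anti–CTLA-4 and 5 of 237 with PancVAX and both antibodies. Of these, 3 of the 5 with PancVAX and both antibodies and 1 of the 5 with both antibodies had 17 to 78 *Jchain* UMIs and 1.75% to 5.54% immunoglobulin, and the other 15 barcodes had 18.6% to 79.2%. The counts are of cells in 8 pools and were not tested. They are limited by the rule, since a plasma cell with too few UMIs of *Cd79a*, *Cd79b* and *Ms4a1* was no member. Plasma cells outside the rule were not counted, so these values do not give the number of plasma cells in a pool.

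Each plasma-type barcode was led by 1 light chain segment, which took 82.4% to 100% of its light chain variable UMIs. A barcode of the Percoll library with anti–PD-1 gave 13558 UMIs of *Igkv1-117*, 4269 of *Ighv14-4* and 1404 of *Ighg2b*, and 79.2% of its 26325 UMIs were immunoglobulin. In the whole-tumor library with both antibodies, a barcode used the same *Igkv1-117* and *Ighv14-4* (7893 and 1376 UMIs) but led with *Ighm* (1538 UMIs). *Igkv6-23* was paired with *Ighv1-82* in Percoll with both antibodies (8294 and 3473 UMIs, *Ighg2b*) and in Percoll with PancVAX and anti–CTLA-4 (9279 and 3134 UMIs, *Ighg2c*), pools of different mice. *Ighv1-82* led the heavy chain in 6 of the 19 barcodes and in 44 of 1317 other B cells, or 3.34%, where it ranked sixth. The files give segments only, not the joined sequence, so shared segments do not show shared clones.

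**Figure D3:**
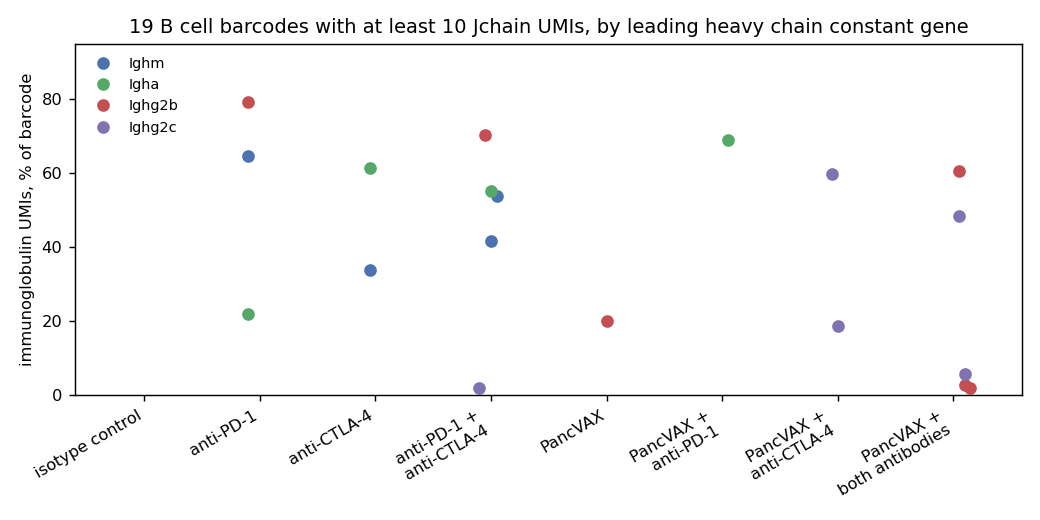
Immunoglobulin UMIs as a percent of all UMIs (y axis) in the 19 members with at least 10 *Jchain* UMIs, by treatment (x axis), colored by the heavy chain constant gene with most UMIs. Values run from 1.75% to 79.2%, and the isotype control has none.

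With none of the agents did a gene pass the test over all members, as edgeR's quasi-likelihood test with Benjamini-Hochberg adjustment called 0 of 10539 genes (0% called) for the vaccine and for either antibody. A call needed an adjusted *P* under 0.05 and a log2 fold change beyond 0.5. Unadjusted *P* values under 0.05 were found for 328 genes with PancVAX, 190 with anti–PD-1 and 581 with anti–CTLA-4, and DESeq2 called 0, 0 and 4. Within the limits of the study 7061 genes were tested, with, in the same order, 374, 221 and 228 unadjusted *P* values under 0.05. PancVAX then had 0 calls (0% called) and each antibody 1 (0.0142% called). The PancVAX effect differed between preparations for 0 of 9118 genes by edgeR, with 215 at an unadjusted *P* under 0.05 and 1 call by DESeq2.

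*Lyz2*, the lysozyme gene of macrophages and neutrophils, was the call for anti–PD-1 within the limits. It stood at 220, 216, 88.4 and 96.9 CPM, meaning UMI counts scaled to the same total in each pool, with anti–PD-1 alone, both antibodies, PancVAX with anti–PD-1 and PancVAX with both antibodies. The 4 pools without anti–PD-1 lay between 57.4 and 66.3 CPM, below all 4. The log2 fold change was 1.31 ± 0.21 (SE, edgeR adjusted *P* = 0.010), and over all members it was 0.98 with an adjusted *P* of 1.00. Within the limits the call was lost without the isotype control, the anti–PD-1 pool or the anti–CTLA-4 pool (adjusted *P* = 0.21, 0.23 and 0.80), and the change was 1.98 in Percoll libraries alone and −0.03 in whole-tumor libraries alone, neither of them called. The macrophage list without *Lyz2*, which is one of its genes, summed to 3.80, 4.14, 10.2 and 4.64 UMIs per 10000 in the same 4 pools and to 3.01 to 4.73 in the others, and the groups overlapped. The C1q genes of this list were capped by the rule. The neutrophil list summed to 10.3 and 34.1 with anti–PD-1 alone and with both antibodies, where *Lyz2* was highest, to 0.11 and 2.62 in the other 2 pools with anti–PD-1, and to 0.31 to 4.17 in pools without it. The part of either list in the difference was not tested.

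*Ifitm1*, an interferon-induced membrane protein gene, was the call for anti–CTLA-4. It stood at 96.1, 68.5, 27.5 and 18.5 CPM with anti–CTLA-4 alone, both antibodies, PancVAX with anti–CTLA-4 and PancVAX with both antibodies, and at 34.5, 9.56, 8.61 and 17.7 CPM in the isotype control, anti–PD-1, PancVAX, and PancVAX with anti–PD-1. The groups overlapped through the isotype control. The log2 fold change was 1.89 ± 0.32 (edgeR adjusted *P* = 0.037), and 0.81 over all members with an adjusted *P* of 0.91. DESeq2 did not call it (adjusted *P* = 1.00), and the call was lost without any 1 of the pools anti–PD-1, anti–CTLA-4, both antibodies, PancVAX, or PancVAX with anti–CTLA-4, with log2 fold changes of 1.40 to 2.08. In Percoll libraries alone it was called (2.71, adjusted *P* = 0.015), and in whole-tumor libraries alone it was not (0.80, adjusted *P* = 1.00), where it stood at 67.8, 0, 13.8 and 28.5 CPM with anti–CTLA-4 and at 60.9, 6.61, 0 and 46.2 without. Whether the preparations differ in this was not tested. The neutrophil list moved between pools as well, from 0.11 to 34.1 UMIs per 10000, with 34.1 in the pool with both antibodies, 10.3 with anti–PD-1 and 1.12 in the anti–CTLA-4 pool, where *Ifitm1* was highest, and its part in the difference was not tested.

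Mitochondrially encoded genes, looked at after their values were seen, had no call for PancVAX in either set of members. All 13 such genes had negative log2 fold changes within the limits (median −0.48), with a lowest adjusted *P* of 0.077, and DESeq2 called 4 of them. With immunoglobulin genes left out, edgeR called *mt-Cytb*, *mt-Co3*, *mt-Nd4* and *mt-Nd2* lower (adjusted *P* = 0.035 to 0.050), together with *Il1rn*, the interleukin-1 receptor antagonist gene (−2.11 ± 0.39, adjusted *P* = 0.035), and *Ifitm1* (−1.64 ± 0.33, adjusted *P* = 0.035). In whole-tumor libraries alone within the limits it called the same 4 mitochondrial genes and *mt-Atp8*, *mt-Nd4l*, *mt-Nd1* and *mt-Co2* lower, at log2 fold changes of −1.38 to −0.77. In Percoll libraries alone within the limits none of them was called. *mt-Co3*, a subunit of cytochrome oxidase, stood at 5012 to 6854 CPM in the 4 PancVAX pools and at 6629 to 9394 in the others, and the groups overlapped. The median mitochondrial share per B cell was 2.89% to 3.44% in PancVAX pools and 3.16% to 4.65% in the others, and in T cells of the same pools 1.81% to 2.33% and 2.25% to 3.22%.

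B cell identity and antigen-presentation genes had no call for any agent. Within the limits, the 10 MHC class II genes had 0 calls and median log2 fold changes of −0.06 for PancVAX, −0.10 for anti–PD-1 and −0.01 for anti–CTLA-4, and *H2-Aa* ranged from 4835 CPM with PancVAX and anti–PD-1 to 9228 with anti–PD-1. Of the 22 interferon-stimulated genes 14 were tested, with medians of −0.25, 0.02 and 0.17 and 0 calls. In whole-tumor libraries alone, within the limits, *Isg15*, a ubiquitin-like protein gene induced by interferon, was called lower with PancVAX (−2.34 ± 0.32, edgeR adjusted *P* = 6.89e-05) and with anti–PD-1 (−1.63 ± 0.32, adjusted *P* = 0.016). It stood there at 37.2, 0, 41.5 and 5.70 CPM in the PancVAX pools and at 160, 67.8, 211 and 30.9 in the others, and the groups overlapped. In Percoll libraries *Isg15* ran from 24.8 to 159 CPM with PancVAX and from 17.8 to 228 without. The medians over all genes tested were −0.01, −0.01 and 0.01. *Ighd* was 150 CPM with PancVAX and anti–PD-1, which had 37 B cells within the limits, and 381 to 662 in the other 7 pools. Its log2 fold change with PancVAX was −0.55 ± 0.27 (edgeR adjusted *P* = 0.95), and that of *Ighm* −0.36 ± 0.15 (adjusted *P* = 0.91).

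Markers of activation and regulation had no call for any agent either. *Cd69*, an early activation marker, ranged from 318 to 728 CPM over the 8 pools, *Ccr7*, which guides lymphocytes to T cell zones, from 893 to 1197, *Cxcr5*, which guides them to follicles, from 89.6 to 143, and *Cd86*, a costimulatory ligand, from 31.6 to 118. *Cd274*, which encodes PD-L1, the ligand of PD-1, ranged from 51.7 to 105 CPM and was found in 13.4% of B cells of at most 10000 UMIs and 15.1% of the deeper T cells, or 7.09% and 4.63% after thinning to the same depth. *Il10* had 16 UMIs in all members.

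Preparation changed many genes. Over all members, 191 of 9509 genes (2.01% called) differed between Percoll and whole-tumor libraries of the same treatment, 138 higher (1.45% called) and 53 lower (0.557% called) in Percoll. Within the limits of the study the count was 436 of 5924 (7.36% called), 287 higher (4.84% called) and 149 lower (2.52% called). Of the 191 genes 141 were among the 436, all 141 in the same direction, or 73.8% of the first list and 32.3% of the second. Since preparation was also the sequencing batch, which of the 2 the values follow cannot be told apart. The neutrophil list also moved with preparation in the B cells of at most 10000 UMIs, with a median over libraries of 0.40 UMIs per 10000 in whole tumor (0 to 14.9) and 2.63 in Percoll (0.058 to 50.1), and its part in the genes below was not tested.

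Within the limits, the heat shock and dissociation list and the activation list had the highest medians. The lists were chosen with earlier results of these data known. Of all genes tested, 4.84% were called higher within the limits, and 2.01% were called in either direction over all members. Of 12 heat shock and dissociation genes, 10 were higher in Percoll within the limits and 0 lower, with a median log2 fold change of 0.88 against 0.00 over all genes, and 2 were called over all members (median 0.28). Of 22 activation genes 21 were tested, 7 were higher and 0 lower, with a median of 0.48, and 4 were called over all members (median 0.39). *Hspa1b*, an inducible HSP70 chaperone, stood at 2.97, 63.4 and 421 CPM (lowest, median and highest of 8) in Percoll and at 0, 20.9 and 116 in whole tumor, and was higher in 7 of 8 pairs (log2 fold change 1.59 ± 0.22, edgeR adjusted *P* = 5.57e-08). *Dnajb1*, a co-chaperone, was higher in 8 of 8 pairs in both sets, at 133, 339 and 1102 CPM against 77.2, 137 and 247, by 1.40 ± 0.24 within the limits (adjusted *P* = 0.0047) and 0.79 ± 0.11 over all members (adjusted *P* = 0.00013). *Hspa1b* and *Dnajb1* overlapped between preparations.

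*Gadd45b*, a stress-induced gene, stood at 340, 420 and 653 CPM in Percoll and at 15.5, 65.7 and 92.3 in whole tumor, with no overlap. Its log2 fold change was 2.86 ± 0.15 within the limits (edgeR adjusted *P* = 3.17e-19) and 1.61 ± 0.14 over all members (adjusted *P* = 1.30e-05). *Irf1*, an interferon-regulated transcription factor, stood at 292, 325 and 587 CPM against 61.8, 84.5 and 138, again without overlap, and rose by 1.96 ± 0.13 within the limits and 0.65 ± 0.13 over all members. *Nfkbia*, which encodes the inhibitor that NF-kB induces to shut itself off, stood at 716, 983 and 1382 CPM against 179, 307 and 542 (1.74 ± 0.20, edgeR adjusted *P* = 0.00082), but was not called over all members (0.44 ± 0.18, adjusted *P* = 0.30).

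*Tnf*, the inflammatory cytokine, stood at 20.4, 30.6 and 117 CPM in Percoll and at 0, 11.0 and 20.3 in whole tumor within the limits, nearly touching. The 0 came from whole tumor with PancVAX and anti–PD-1, which had 16 B cells there. Over all members the preparations overlapped, as Percoll fell to 6.33 CPM and whole tumor reached 11.4. The log2 fold change was 2.16 ± 0.33 within the limits (edgeR adjusted *P* = 1.33e-06) and 2.10 ± 0.34 over all members (adjusted *P* = 0.00061). *Cd69* was higher in 8 of 8 pairs, at 373, 713 and 935 CPM against 138, 416 and 588, with overlap (0.86 ± 0.11, edgeR adjusted *P* = 4.27e-09). The NF-kB subunit *Rel* rose by 0.69 ± 0.10, the NF-kB regulator *Nfkbid* by 0.51 ± 0.12, the kinase *Lyn* by 0.69 ± 0.12 and the inhibitory Fc receptor *Fcgr2b* by 0.58 ± 0.16, and these 4 were also called over all members. *Junb*, *Jun*, *Jund*, *Fos*, *Fosb*, *Nr4a2*, *Nr4a3*, *Atf3* and *Id3* were called within the limits but not over all members, at 0.52 to 1.79. *Dusp1*, a phosphatase of stress kinases, rose by 1.41 ± 0.15 within the limits in 8 of 8 pairs but had a log2 fold change of −0.14 over all members (adjusted *P* = 0.89). *Ciart*, a circadian repressor, *Zfp296* and *Hspa2* were among the 10 largest rises over all members at 1.60, 2.05 and 1.60.

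**Figure D4:**
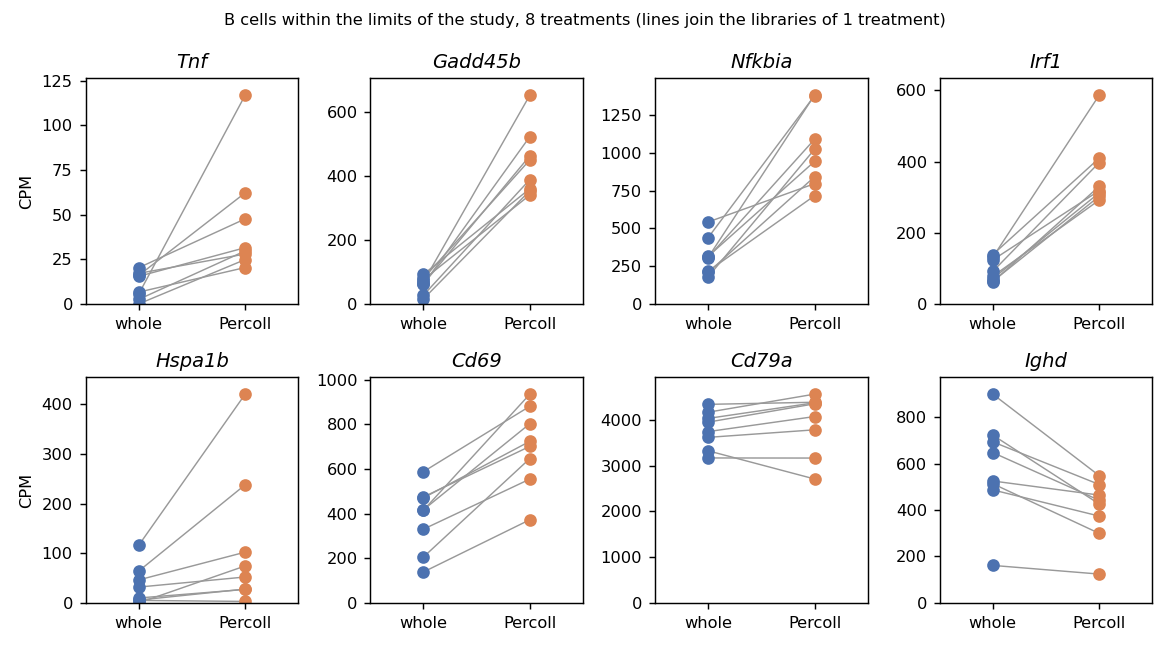
CPM of 8 genes (y axes, from 0) in B cells within the limits of the study, in the whole-tumor and Percoll library of each treatment, joined by lines. *Gadd45b*, *Nfkbia* and *Irf1* separate the preparations in all 8 pairs, *Cd79a* does not, and *Ighd* is lower in Percoll in all 8 pairs.

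Of 14 B lineage transcription factors 2 were higher (*Foxo1* and *Id3*) and 2 lower (*Pou2f2* and *Bcl11a*), and of 18 B cell receptor signaling genes 2 were higher (*Fcgr2b* and *Lyn*) and 1 lower (*Btk*), beside 4.84% of all genes tested called higher and 2.52% lower, so that nothing is read from these small counts. *Ighd* was lower in 8 of 8 pairs within the limits, at 124, 434 and 548 CPM against 162, 586 and 899, by −0.57 ± 0.10 (edgeR adjusted *P* = 2.36e-05), although the preparations overlapped. *Pou2f2*, a B cell transcription factor, fell by 0.75 ± 0.13 and *Ltb*, a cytokine of lymphoid tissue, by 0.55 ± 0.11. Of 10 chemokine receptor and egress genes 9 were tested and 3 fell, namely *Cxcr5*, *Cxcr4* and *Gpr183*, by 0.52, 0.59 and 0.59. *Bcl11a*, a B lineage factor, *Cd180*, a Toll-like receptor homolog, and *Gpr183* fell both within the limits and over all members. With a mitochondrial limit of 5% instead of 10% over all members, *Bcl11a*, *Cd180* and *Gpr183* turned to 0.18, 0.14 and 0.16 without a call. Among the largest falls over all members were *Hist1h1e*, a linker histone, which was lower in 8 of 8 pairs (−1.08 ± 0.15, adjusted *P* = 0.00041), *Ccl5*, a chemokine of T and NK cells (−1.74 ± 0.27), *Krt7*, a keratin of the tumor (−1.15 ± 0.29), and the light chain segment *Igkv1-88* (−3.07 ± 0.46).

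*Cd79a*, which the rule used and is given as a description, stood at 2707, 4209 and 4560 CPM in Percoll and 3166, 3845 and 4337 in whole tumor. *Ebf1* (−0.01 ± 0.08), *Fcmr* (0.02 ± 0.09), *Ccr7* (−0.01 ± 0.09), *Cd74* (0.15 ± 0.05) and *H2-Aa* (0.12 ± 0.06) had no call. Of 10 MHC class II genes only *Ciita*, their transactivator, was called, at −0.50 ± 0.14, and of 10 MHC class I genes none was, beside 7.36% called of all genes tested. The mitochondrial share, which the rule capped, moved with preparation too. Its median per B cell was 2.76% to 6.91% over the whole-tumor libraries and 2.72% to 3.59% over the Percoll libraries. Of 13 mitochondrially encoded genes 4 were lower in Percoll. With both the limits of the study and a mitochondrial limit of 5%, 189 genes were higher and 67 lower, and *Tnf*, *Gadd45b*, *Irf1*, *Nfkbia*, *Hspa1b*, *Dnajb1*, *Cd69*, *Rel* and *Dusp1* kept their calls.

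**Figure D5:**
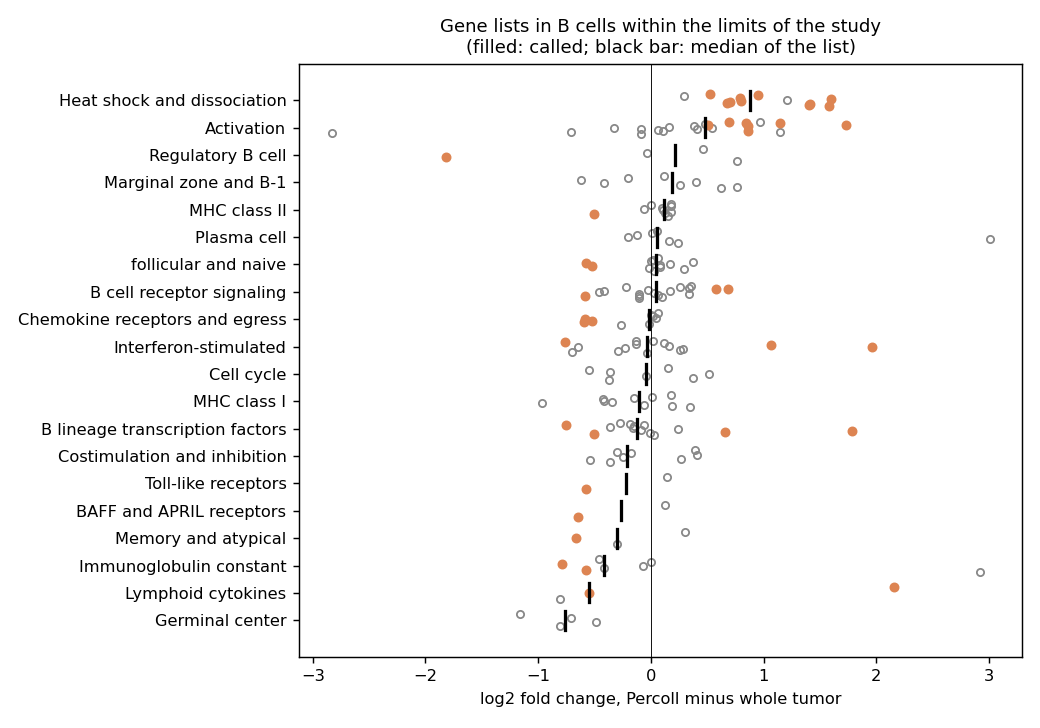
Log2 fold change in B cells within the limits of the study (x axis, Percoll minus whole tumor) of each tested gene of 20 lists (y axis), filled where called, with the median of each list as a black bar. Heat shock and dissociation (median 0.88, 10 of 12 called) stands highest, and germinal center (0 called) lowest, beside 7.36% called of all genes tested.

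The promoters of 3 risen genes are printed to show where NF-kB and heat shock motifs lie in them, from RefSeq on GRCm38.p6, as 250 bases before and 50 after the annotated start. In *Nfkbia* and *Rel* the capitals mark matches to the NF-kB motif on either strand, which in *Rel* overlap each other (GGGAAATCCC and GGAAATCCCC), and in *Hspa1b* they mark GAANNTTC, the core of a heat shock element. The *Rel* promoter also holds GAANNTTC (GAAGATTC) and that of *Hspa1b* an NF-kB match (GGGAAGCTCC), both left in lower case.
Nfkbia, chr12:55492598-55492897, minus strand: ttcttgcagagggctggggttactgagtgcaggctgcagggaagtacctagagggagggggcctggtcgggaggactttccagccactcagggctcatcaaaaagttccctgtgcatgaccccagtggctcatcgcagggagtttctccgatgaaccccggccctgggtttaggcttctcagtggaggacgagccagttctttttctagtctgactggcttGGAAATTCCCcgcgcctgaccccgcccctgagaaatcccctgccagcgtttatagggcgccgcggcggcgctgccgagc
Rel, chr11:23770920-23771219, minus strand: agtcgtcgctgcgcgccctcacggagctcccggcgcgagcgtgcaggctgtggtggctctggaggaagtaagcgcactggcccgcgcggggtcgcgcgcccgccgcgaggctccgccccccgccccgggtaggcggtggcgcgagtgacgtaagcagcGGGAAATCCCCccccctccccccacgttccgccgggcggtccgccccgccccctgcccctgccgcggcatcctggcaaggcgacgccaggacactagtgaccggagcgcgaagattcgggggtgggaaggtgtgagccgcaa
Hspa1b, chr17:34959189-34959488, minus strand: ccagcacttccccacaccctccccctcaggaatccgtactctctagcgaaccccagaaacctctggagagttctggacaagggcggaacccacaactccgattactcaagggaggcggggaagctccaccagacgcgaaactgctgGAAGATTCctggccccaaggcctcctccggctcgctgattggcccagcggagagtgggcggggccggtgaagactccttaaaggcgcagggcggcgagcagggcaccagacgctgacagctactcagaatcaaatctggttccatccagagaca
A match describes letters and is not evidence of binding. Of other risen genes named above, *Tnf*, *Gadd45b*, *Dnajb1*, *Dusp1*, *Atf3* and *Junb* held neither motif, and *Irf1*, *Nfkbid* and *Jun* held a match at an annotated start. The NF-kB motif was found in 8.46% of all 32851 promoters of the table, in 10.8% of those of the genes tested within the limits, in 11.4% of those of genes higher in Percoll and in 12.1% of those of genes lower. GAANNTTC was found in 7.86%, 5.54%, 6.40% and 5.71%. Neither motif stood out among the risen genes against all genes tested. Symbols matched for 229 of the 287 higher genes and 111 of the 149 lower genes.

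Clustering of the 2889 members without variable segments gave 6 clusters, described without a test since the same genes formed them. The cluster of 1356 cells led by *Fam107b*, *Gna13*, *Dusp2*, *Gadd45b* and *Rel* was 83.8% Percoll cells, and that of 910 cells led by *mt-Nd3*, *Hist1h1e* and *Ighd* was 9.89% Percoll cells. A cluster of 131 cells, 90.1% from Percoll, was led by *Hspa1a*, *Hspa1b*, *Dnajb1* and *Hspb1* and came from 6 of the 8 pools. It held 45 of 368 members with PancVAX and anti–CTLA-4, 39 of 365 with PancVAX, 6 of 110 with both antibodies, 2 of 47 with PancVAX and anti–PD-1, 18 of 446 with anti–CTLA-4, 21 of 904 with anti–PD-1 and none of the isotype control or of PancVAX with both antibodies.

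Of the other clusters, the largest held mostly deep barcodes, the next was plasma cell–like and the smallest carried neutrophil RNA. A cluster of 370 barcodes, 95.9% of them over 10000 UMIs, was led by *Fn1*, *Spp1* and *Krt18* and had *Ighd*, *Ighm* or *Fcmr* in 53.5%. A plasma cell–like cluster of 82 barcodes was led by *Jchain*, *Ighg2b*, *Igha*, *Xbp1* and *Mzb1*, with germinal center and cycling markers raised as well. It had 40.2% of its barcodes over 10000 UMIs and *Ighd*, *Ighm* or *Fcmr* in 75.6%. Most of its barcodes had no *Jchain*, since only 19 members had at least 10 and 19 more had 1 to 9 of its UMIs. The smallest, 40 barcodes at a median of 3365 UMIs, was led by the neutrophil genes *S100a9*, *S100a8*, *Cxcl2* and *Il1b*, and had *Ighd*, *Ighm* or *Fcmr* in 97.5%. It came from 7 pools.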

How the data were processed

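Single-cell 5′ RNA libraries (16) and T cell receptor libraries (8) were used. The authors aligned reads to mm10 with Cell Ranger 4.0.0, per the submitters' processing notes, and deposited 1 matrix of UMI counts per gene and barcode, whose barcode suffix names the library. The B cell rule and the gene lists were chosen with earlier results of these data known. UMI counts of B cells were summed by pool (8) or by library (16) and tested with edgeR 4.0.16 (quasi-likelihood, TMM, filterByExpr), with DESeq2 1.42.0 as an alternative, Benjamini-Hochberg adjustment over all genes tested, and a call at an adjusted *P* of 0.05 and a log2 fold change of 0.5. The script was tested on simulated data with known changes. The 3 agents were terms of 1 model, and treatment was a block for preparation. Shares were compared with exact two-sided permutation tests over pools (scipy 1.17.1). The labels do not say which mice a library holds, so *P* values for the agents measure the spread between pools. Those for preparation measure how the difference between the 2 libraries of a treatment varied over the treatments. The study's own cell-level model was not used because cells are not replicates. Clusters were made with scanpy 1.11.5 on 2000 variable genes. No doublet caller was run. Members of high depth were given apart, which does not remove doublets of lower depth. Named genes were the 10 largest called rises and falls with at least 30 UMIs, every called list member and 20 genes always described, and any other gene named was chosen after its values were seen. The receptor contigs served only to count members with a contig. All intervals are exact 95% binomial intervals and cover counting error only. Some genes are not reported here.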

Additional observations from a re-analysis of the deposited data

Results flagged for a closer look

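The B cell share with anti–PD-1 alone stood apart from the other 7 treatments in both preparations. It was 6.36% in whole tumor, where the nearest value was 2.88%, and 8.30% in Percoll, where the nearest was 3.71%. The gap was 0.572 and 0.571 of the whole range of the 8 libraries. The labels do not tell if the 2 libraries share animals, so they are not counted as independent.

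*Ifitm1* within the limits of the study was 68.5 CPM in the pool with both antibodies, far from the other 3 pools with anti–PD-1, of which the nearest was 18.5 CPM, and the gap was 0.849 of the range. That pool also had the highest neutrophil list, and its part in the value was not tested. In all 26 groups of values were examined in this way, and chance flags about 1 in 20.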

How the results depend on the processing

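The differences in B cell share kept their sign under the 11 alternatives other than leaving out a pool, with exact permutation *P* values, adjusted over the 3 agents, of 0.43 to 0.77 for PancVAX, 0.54 to 0.97 for anti–PD-1 and 0.51 to 0.77 for anti–CTLA-4. With 1 pool left out the difference ran from −2.58 to −0.35 for PancVAX, −1.98 to 0.38 for anti–PD-1 and −2.71 to −0.36 for anti–CTLA-4, the smallest for PancVAX and anti–CTLA-4 without anti–PD-1 alone, with adjusted *P* values of 0.26 to 0.94, 0.086 to 1.00 and 0.086 to 0.90. The Percoll difference ran from 0.51 to 0.78 with 1 pool left out. Over 9 other alternatives, some with another denominator or with log2 shares, it ran from 0.30 to 1.93 (exact permutation test of the signs, *P* = 0.0078 to 0.047).

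Calls for PancVAX, all within the limits of the study, were 6 with DESeq2, 6 with immunoglobulin genes left out, 13 in whole-tumor libraries alone, 3 over 16 libraries and 1 with a mitochondrial limit of 5%. With 1 pool left out they were 0 to 2 over all members and 0 to 8 within the limits. Calls for anti–PD-1 were 1 or 5 where not 0 (5 in whole-tumor libraries within the limits), and with 1 pool left out 0 to 4 over all members and 0 to 5 within the limits. Calls for anti–CTLA-4 were 4 with DESeq2, 2 over 16 libraries and in either preparation alone within the limits, and 1 without the filter on low counts, within the limits (also with immunoglobulin genes left out there) and in members without UMIs of other lineages, and with 1 pool left out 0 to 6 over all members and 0 to 7 within the limits. The PancVAX effect by preparation had 1 call with DESeq2 and without the filter, 2 with DESeq2 within the limits, and with 1 pool left out 0 to 1 over all members and 0 to 4 within the limits. Calls for preparation were 113 with DESeq2, 289 without the filter, 436 within the limits, 329 with a mitochondrial limit of 5%, 291 in members without UMIs of other lineages, 490 within the limits with immunoglobulin genes left out, 47 with no block for treatment, and with 1 pool left out 125 to 224 over all members and 324 to 483 within the limits. The cause of these differences was not tested.

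*Bcl11a*, *Cd180* and *Gpr183* turned to 0.18, 0.14 and 0.16 with a mitochondrial limit of 5%. *Dusp1*, at −0.14 over all members, was 1.41 within the limits of the study, 1.66 in members without UMIs of other lineages and, within the limits combined with a further change, 1.43 with DESeq2, 1.39 with immunoglobulin genes left out and 1.29 with a mitochondrial limit of 5%. With 1 pool left out it ran from −0.28 over all members to 1.58 within the limits. Alternatives within the limits of the study, other than the limits themselves, were chosen after seeing the data. The pool with PancVAX and anti–PD-1 had 47 members, the fewest of the 8.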
